A study of Saccharomyces cerevisiae with 14 samples.

Results

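RNA sequencing of asynchronous cultures of *Saccharomyces cerevisiae* compared a strain carrying wild-type *ARP8* with a strain carrying *arp8-AA* across all transcripts. The 6 libraries were chosen by their labels, which give a genotype and a replicate number and no time after release, and make up 6 of the 14 libraries of the series. There were 3 biological replicates per genotype. The *ARP8* strain, yCFK51, is MAT a his3Δ1 leu2Δ0 met15Δ0 ura3Δ0. The *arp8-AA* strain, yPB4, is MAT a his3Δ1 leu2Δ0 ura3Δ0 with both target serines of Arp8 replaced by alanine at the endogenous locus. Each genotype was represented by 1 strain, so an effect of the allele and any other difference between these strains cannot be told apart. Cultures were grown overnight in YPD, diluted into YPAD, both rich media with glucose, and collected at an OD600 of 0.4. The other 8 libraries came from the same genotypes released from α-factor, the pheromone that arrests MAT a cells in G1, and were collected after 10 min and 20 min.

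INO80 is an ATP-dependent chromatin remodeller that slides and spaces nucleosomes at promoters and at replication origins. Arp8, an actin-related protein, belongs to the module of the complex that binds the DNA beside the nucleosome. The Dbf4-dependent kinase (DDK), which phosphorylates the replicative helicase at the start of S phase, is the kinase to which the study assigns both Arp8 serines, and *arp8-AA* removes these acceptor sites. The comparison asked how the steady-state transcriptome of growing cells differs when those serines cannot be phosphorylated.

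The codons that the allele replaces lie in the single exon of *ARP8* (YOR141C), on the minus strand of chromosome XV, from 589942 to 592587 in the R64 build. The reference sequence around each, written along the gene's strand with the serine codon in capitals, is given for the residues at position 65 (chrXV:592375-592413) and position 233 (chrXV:591871-591909).
Ser65: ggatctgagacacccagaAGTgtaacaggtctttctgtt
Ser233: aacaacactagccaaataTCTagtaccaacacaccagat
The deposited values are counts per transcript, so the allele itself cannot be read from them. *ARP8* was present at 149, 184 and 184 CPM (counts-per-million, here of estimated counts scaled by TMM) in *ARP8* replicates 1, 2 and 3 and at 189, 217 and 189 CPM in *arp8-AA* replicates 1, 2 and 3. The lowest *arp8-AA* library lay just above the highest *ARP8* library, and the log2 fold change of 0.21 ± 0.10 (SE) did not pass the test (edgeR adjusted p = 0.339).

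The asynchronous libraries held between 1864995 and 2582840 estimated counts, and 5877 to 5955 transcripts had at least 1 count. Markers of mating type a were expressed in every library (*STE6*, the a-factor exporter, at 623 to 778 CPM), and none of the 4 markers of mating type α passed the filter on low counts. *LEU2*, *URA3* and *MET17* (the gene deleted in met15Δ0) were listed at 0 in all 6 libraries, although met15Δ0 is given for the *ARP8* strain only. *HIS3*, by contrast, held 57 to 68 estimated counts in these libraries, although his3Δ1 is given for both strains. *ARP8* replicate 1 stood apart: the first principal component, with 43.2% of the variance, placed it at -27.0 and the other libraries between -3.80 and 8.94. Its counts also departed most from those of its own group (chi-square per degree of freedom 11.8 and 11.5, against 1.61 between *ARP8* replicates 2 and 3). On the second component, with 28.0% of the variance, *arp8-AA* replicate 1 was at -19.8 and the other libraries between -6.55 and 9.60. By chi-square, *arp8-AA* replicate 2 lay closer to *ARP8* replicates 2 and 3 (2.62 and 2.66) than to *arp8-AA* replicates 1 and 3 (8.15 and 3.22). Counts of called transcripts are therefore given with and without these replicate pairs.

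The test was edgeR's quasi-likelihood test blocked on replicate pairs, and a transcript was called where its Benjamini-Hochberg adjusted p was under 0.05. Values after ± are standard errors (SE) of the log2 fold change unless SD is named. Of 5204 transcripts tested, 49 were called (0.942%), 32 of them higher in *arp8-AA* (0.615%) and 17 lower (0.327%). All 49 differed in the same direction in 3 of 3 pairs, and 9 changed by more than 1 on the log2 scale. The 32 that rose included 5 genes of storage carbohydrate, 3 each of glycolysis, general stress and the tricarboxylic acid cycle, and 2 of siderophore uptake. The 17 that fell were 9 mitochondrially encoded transcripts and 8 nuclear ones, among them 3 histone genes and *DCD1*. The nuclear called genes with a reference position lay on 14 chromosomes. Among them, only *BDH1* with *BDH2* (453 bases apart on chromosome I) and *HHT1* with *HHF1* (646 bases apart on chromosome II) were within 2000 bases of each other. YFR052C-A, called higher, had no reference position and was not checked. Its ID is next in number to that of *HXK1* (YFR053C), also called higher, so the 2 may not be separate rises.

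**Figure D1:**
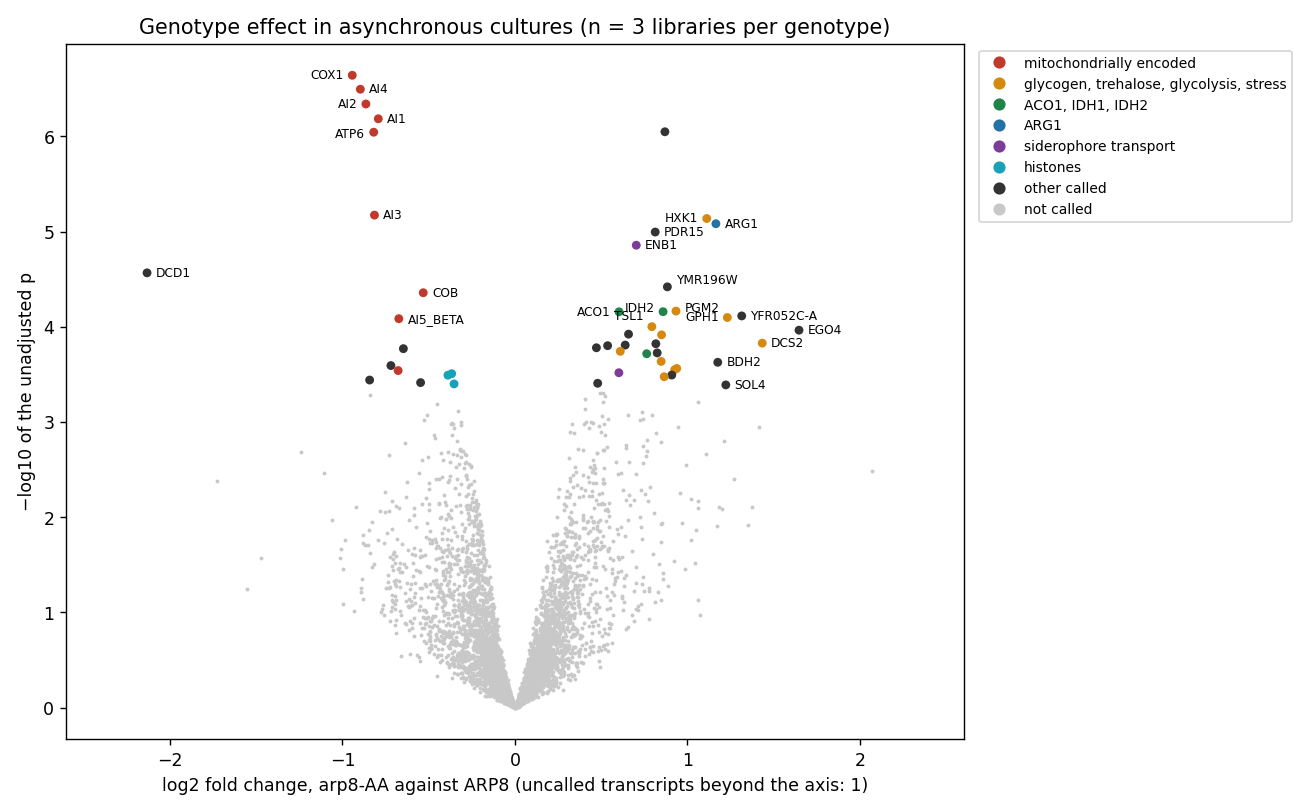
Each point is a transcript, with the log2 fold change of *arp8-AA* against *ARP8* on the x axis and −log10 of the unadjusted p on the y axis, from 3 libraries per genotype. Coloured and dark points are the 49 called transcripts. Mitochondrially encoded transcripts are among those with the smallest p, and *DCD1* has the largest called fall at -2.13.

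The groups of 3 libraries did not overlap for 38 of the 49 called transcripts, against 16.2% of all transcripts tested, and the other 11 were all among those that rose. The 49 were called from these same libraries. Neither this excess nor the shared direction in 3 of 3 pairs is therefore separate support for the calls. For the 32 that rose, *arp8-AA* replicate 2 was the lowest *arp8-AA* library in 30, *arp8-AA* replicate 1 the highest in 24, and *ARP8* replicate 1 the highest *ARP8* library in 22. The median difference of these 32 within a pair was 1.05 in pair 1, 0.50 in pair 2 and 0.94 in pair 3 on the log2 scale. For the 17 that fell it was -0.83, -0.61 and -0.78, a narrower spread. Without replicate pair 1 the count of calls was 47, of which 38 were among the 49, and without pair 2 it was 38, of which 29 were. Without pair 3 it was 8, all among the 49. Leaving out pair 3 therefore moved the count most, and 7 of the 49 were called whichever pair was left out.

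**Figure D2:**
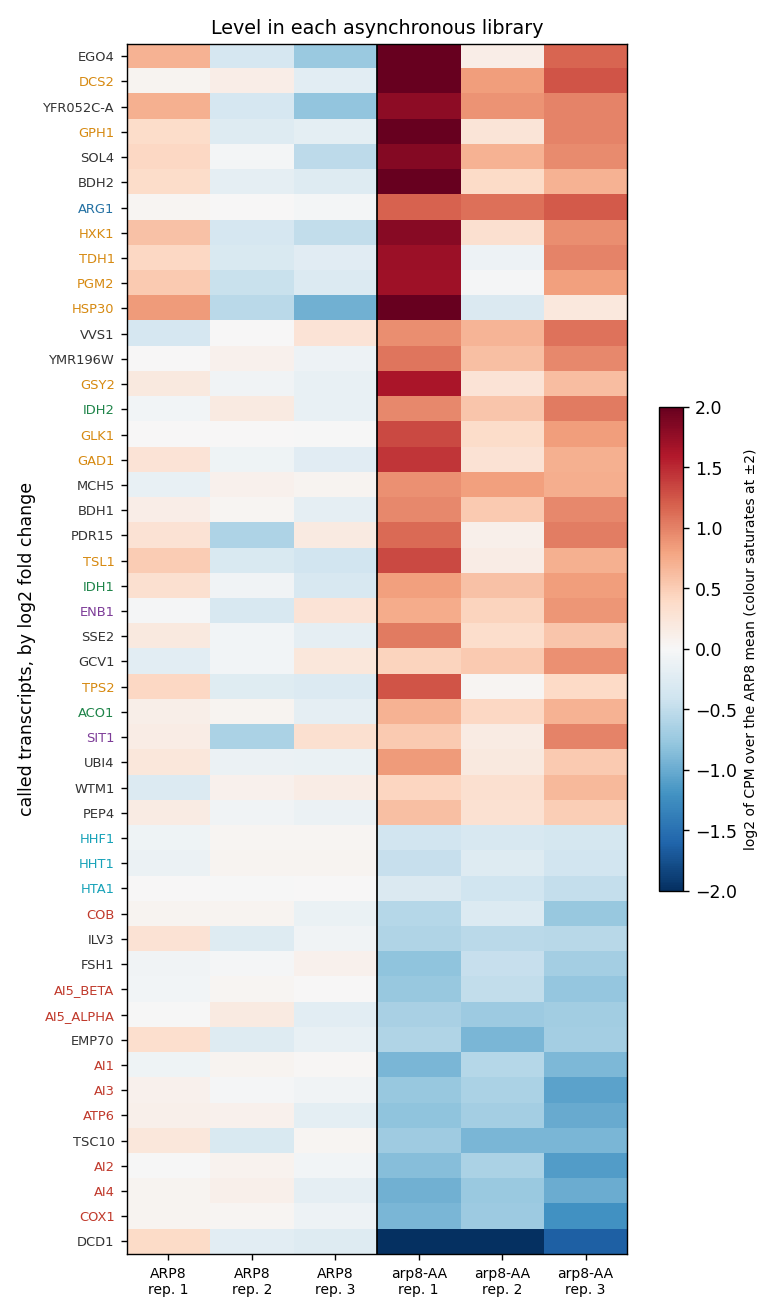
Rows are 48 of the 49 called transcripts in order of fold change, columns are the 6 asynchronous libraries, and colour is log2 of CPM over the mean of the *ARP8* libraries, saturating at ±2. Among the *arp8-AA* libraries, replicate 1 is highest and replicate 2 lowest in most of the transcripts that rose, and *ARP8* replicate 1 is above the other *ARP8* libraries for many of them, whereas those that fell are more even across the 3 *arp8-AA* libraries.

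The mitochondrial genome supplied most of the calls with the lowest p. It encodes subunits of cytochrome oxidase, the cytochrome bc1 complex and the ATP synthase, and several of its genes have introns that carry reading frames of their own (AI1 to AI5 in *COX1*, BI2 to BI4 in *COB*). *COX1*, which encodes subunit I of cytochrome oxidase and spans chrMT:13818-26701, was at 1948, 1926 and 1739.5 CPM in *ARP8* replicates 1, 2 and 3 and at 997, 1136 and 809 CPM in *arp8-AA* replicates 1, 2 and 3. The highest *arp8-AA* library was far below the lowest *ARP8* library. The log2 fold change was -0.94 ± 0.08 (SE), with an edgeR adjusted p of 0.000784.

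The reading frames of the *COX1* introns fell with it. *AI1* fell by 0.79, *AI2* by 0.86, *AI3* by 0.81, *AI4* by 0.90, *AI5_ALPHA* by 0.68 and *AI5_BETA* by 0.67 on the log2 scale. These reading frames overlap *COX1* and, except *AI5_BETA*, each other on the same strand. Of the 31-base words of *COX1*, 59.8% occur in another coding sequence of the reference. The share was 50.6% for *AI5_ALPHA*, 42.2% for *AI4*, 17.5% for *AI3*, 6.90% for *AI2*, 5.62% for *AI1* and 0.0% for *AI5_BETA*. Where words are shared kallisto divides the reads, so the values of *COX1*, *AI4* and *AI5_ALPHA* in particular are not independent measurements. *ATP6*, which follows *COX1* in the genome (chrMT:28487-29266) and encodes subunit a of the ATP synthase, does not overlap it in the annotation. *ATP6* was at 483, 479.9 and 394 CPM in the *ARP8* replicates and at 260.3, 283 and 226 CPM in the *arp8-AA* replicates, again without overlap (-0.82 ± 0.08, edgeR adjusted p = 0.000784). *COB*, which encodes cytochrome b, fell less (-0.53 ± 0.08, edgeR adjusted p = 0.0163), from 1924, 1925 and 1687 CPM to 1239, 1532 and 1089 CPM. It shares 64.5% of its 31-base words with other coding sequences. Of its intron reading frames, *BI3* (-0.54), *BI4* (-0.33) and *BI2* (-0.12) did not pass the test.

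The remaining mitochondrial genes were not called. *COX2*, for subunit II of cytochrome oxidase, was at 962, 973 and 921 CPM in the *ARP8* replicates and at 930.0, 1044 and 751 CPM in the *arp8-AA* replicates, and the groups overlapped (-0.08 ± 0.09). *COX3*, for subunit III, was at 639, 617 and 559.8 CPM and 586, 659 and 578 CPM (0.01 ± 0.08). *OLI1*, for subunit c of the ATP synthase, was at 766, 710.3 and 636 CPM and 800.0, 723 and 557 CPM (-0.03 ± 0.08). None of these 3 passed the test, and their adjusted p lay between 0.701 and 0.98. Neither *VAR1* (0.19 ± 0.23), for a mitochondrial ribosomal protein, nor *SCEI* (0.00 ± 0.15), for the intron-homing endonuclease of the large ribosomal RNA gene, passed it either. The falls were therefore in transcripts of the *COX1*, *ATP6* and *COB* regions. They were 9 of the 20 mitochondrially encoded transcripts tested, against 0.327% of all transcripts called lower. The median over the 20 was -0.43 against -0.0031 over all transcripts tested. *COX1* and *ATP6* are transcribed as a common precursor in this yeast, with *ATP8* between them, which held at most 3 counts in a library. Without pair 1, 2 or 3 the number of called mitochondrially encoded transcripts was 9, 7 and 5, and the median over the 20 was -0.39, -0.47 and -0.40.

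**Figure D3:**
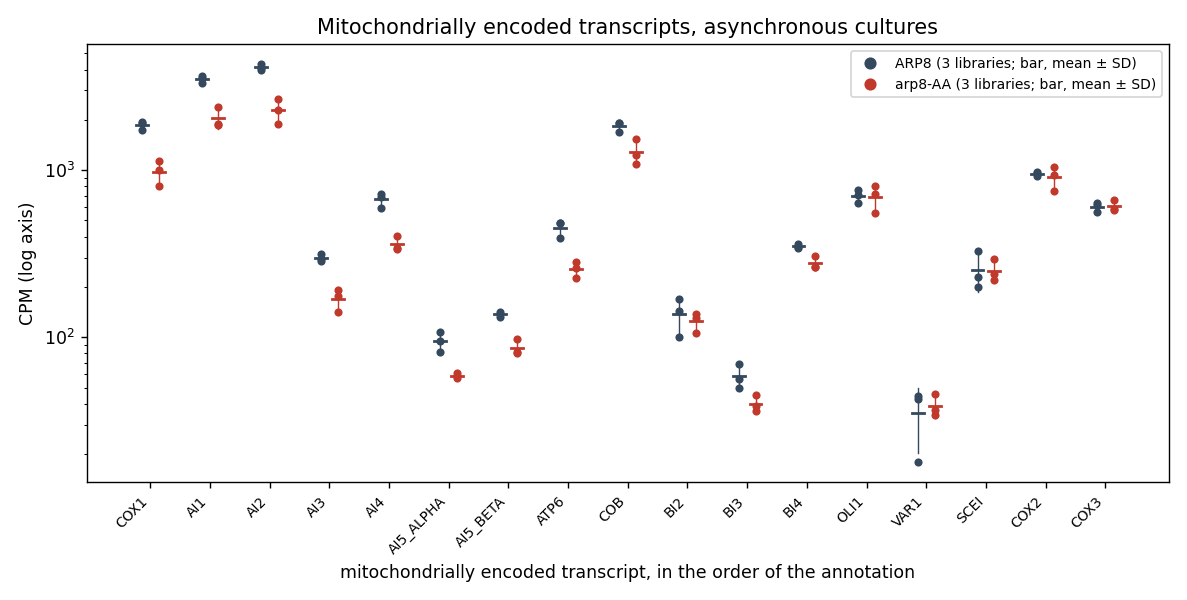
CPM on a log axis for 17 mitochondrially encoded transcripts in the order of the annotation, with 1 point per library, 3 libraries per genotype, and bars for the mean ± SD. The groups separate for *COX1*, its intron reading frames, *ATP6*, *COB*, *BI3* and *BI4*, and overlap for *OLI1*, *VAR1*, *SCEI*, *COX2*, *COX3* and *BI2*.

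As a share of all estimated counts, mitochondrially encoded transcripts made up 1.61%, 1.64% and 1.5% in the *ARP8* replicates and 1.09%, 1.22% and 0.951% in the *arp8-AA* replicates. All 3 *arp8-AA* libraries were below all 3 *ARP8* libraries, with a difference of means of -0.501 percentage points (exact permutation test over libraries, two-sided, p = 0.1, the smallest that 3 against 3 can give). By TPM, which divides by transcript length, the shares were 1.13%, 1.04% and 0.955% against 1.04%, 0.973% and 0.818%. On that scale the groups overlapped and the difference was -0.0985 points (exact permutation p = 0.5). *OLI1*, with 4002 TPM on average in *ARP8* and 4276 TPM in *arp8-AA*, is short and is the largest single contributor to the length-scaled share, whereas *COX1* was at 623 and 356 TPM.

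*DCD1* had the largest called fall of any transcript. It encodes deoxycytidylate deaminase, which supplies dUMP for thymidylate synthesis, and lies on chromosome VIII from 387788 to 388726. It was at 36.9, 24.5 and 23.8 CPM in *ARP8* replicates 1, 2 and 3 and at 5.21, 4.94 and 9.14 CPM in *arp8-AA* replicates 1, 2 and 3, which were 68, 53 and 47 against 14, 10 and 22 estimated counts. Every *arp8-AA* library was far below every *ARP8* library. The log2 fold change was -2.13 ± 0.30 (SE), with an edgeR adjusted p of 0.0118. The nearest tested transcripts did not pass the test: *RPC10*, a subunit shared by the RNA polymerases, had a log2 fold change of -0.36 ± 0.35 on one side, and *CRP1*, a protein that binds cruciform DNA, had -0.08 ± 0.09 on the other. Other genes of deoxynucleotide supply were not called, among them *CDC21*, thymidylate synthase (-0.26 ± 0.24), and *RNR1*, the large subunit of ribonucleotide reductase (0.11 ± 0.12). *DCD1* was the only called member of the 14 pyrimidine genes tested, whose median was -0.08.

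Outside the histones, 4 other nuclear genes fell. *TSC10*, a reductase of sphingolipid synthesis, was at 52.1, 36 and 46.1 CPM in the *ARP8* replicates and 27.2, 23.7 and 23.7 CPM in the *arp8-AA* replicates (-0.84 ± 0.16, edgeR adjusted p = 0.0419). *EMP70*, an endosomal membrane protein, was at 103, 68.8 and 74.4 CPM and 54, 43.4 and 51.1 CPM (-0.72 ± 0.13, adjusted p = 0.0369). *FSH1*, a serine hydrolase, was at 132, 137 and 147 CPM and 79, 101 and 86.4 CPM (-0.65 ± 0.11, adjusted p = 0.0295). In none of the 3 did the groups overlap. *ILV3*, the dihydroxyacid dehydratase of branched-chain amino acid synthesis and an iron-sulfur enzyme, was at 984, 676 and 766 CPM and 532, 558 and 551 CPM (-0.55 ± 0.11, adjusted p = 0.0432), also without overlap. It was the only called member of the 23 genes tested for histidine, lysine and branched-chain amino acid synthesis, whose median was 0.03.

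Histones package DNA into the nucleosomes that INO80 moves, and most of their genes are transcribed in S phase. In RNA from whole cultures, fewer cells in that stage and less RNA per cell cannot be told apart. All 10 core and variant histone genes tested had negative log2 fold changes, from -0.67 to -0.22, with a median of -0.37. Of the 10, 3 were called lower, against 0.327% of all transcripts tested. *HHT1* (histone H3) was at 1060.1, 1192 and 1186 CPM in the *ARP8* replicates and 828, 957 and 882 CPM in the *arp8-AA* replicates (-0.37 ± 0.07, edgeR adjusted p = 0.039). *HHF1* (H4), transcribed from the same promoter region, was at 1048, 1138 and 1134 CPM and 849, 883 and 866 CPM (-0.35 ± 0.07, adjusted p = 0.0432). *HTA1* (H2A) was at 971, 962 and 975 CPM and 797, 733 and 694 CPM (-0.39 ± 0.07, adjusted p = 0.039). In each of these 3 the *arp8-AA* libraries lay below all *ARP8* libraries by a small margin. The same number was called without pair 1, where the median of the 10 was -0.24, and 0 were called without pair 2 or without pair 3.

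Of the histone genes, 7 had an unadjusted p under 0.05 and a lower value in *arp8-AA*, where 8.3% of all transcripts tested did. Among those not called, *HTA2* (-0.23 ± 0.07), *HHT2* (-0.37 ± 0.11) and *HHF2* (-0.22 ± 0.09) separated by genotype. For *HHT2* and *HHF2* the gap was narrow. The lowest *ARP8* and highest *arp8-AA* libraries were at 127.9 and 126.3 CPM for *HHT2* and at 583.2 and 580.7 CPM for *HHF2*. *HHT2* was also highest in *ARP8* replicate 1 (194.8 CPM). *HTB1* (H2B), by contrast, was at 89, 24 and 21.8 CPM in the *ARP8* replicates and 29.1, 24.2 and 22.4 CPM in the *arp8-AA* replicates, so that its value of -0.67 ± 0.30 rested on *ARP8* replicate 1. *HTB2*, *HTZ1* and *HHO1* were likewise highest in that library. Paired copies of histone genes are alike in sequence (40.8% of the 31-base words of *HHF1* and 24.4% of those of *HHT1* occur elsewhere), so the division of reads between copies is uncertain.

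Glycogen and trehalose are the storage carbohydrates of yeast, made as glucose runs low and under stress and held at a low level in growing cells. Of 17 genes tested, 5 were called higher, against 0.615% of all transcripts tested, and none was called lower. The log2 fold change was positive in 14 and negative in 3, with a median of 0.52. *GPH1*, glycogen phosphorylase, was at 127, 82.7 and 86 CPM in *ARP8* replicates 1, 2 and 3 and 464, 118 and 196 CPM in *arp8-AA* replicates 1, 2 and 3. *arp8-AA* replicate 1 was far above all other libraries, and *arp8-AA* replicate 2 lay below *ARP8* replicate 1, so the groups overlapped although every pair was higher (1.23 ± 0.20, edgeR adjusted p = 0.0214). *PGM2*, phosphoglucomutase, was at 108, 55 and 61.7 CPM and 244, 74.1 and 132 CPM with the same overlap (0.93 ± 0.15, adjusted p = 0.0213). *GSY2*, glycogen synthase, was at 184, 154 and 146 CPM and 499, 196 and 248 CPM without overlap (0.86 ± 0.17, adjusted p = 0.0396). The remaining called members were *TSL1* (0.79 ± 0.13) and *TPS2* (0.61 ± 0.11), subunits of the trehalose synthase complex, and in both the groups overlapped.

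Members of the list that did not pass the test differed widely in size. *GLC3*, the glycogen branching enzyme, had a log2 fold change of 0.94 ± 0.21, *GSY1*, the other glycogen synthase, 0.79 ± 0.17, and *NTH1*, neutral trehalase, 0.52 ± 0.11. *TPS1*, the trehalose-6-phosphate synthase, was at 0.13 ± 0.10 and *UGP1*, which makes UDP-glucose, at 0.02 ± 0.08. Of the 17, 10 had an unadjusted p under 0.05 and a higher value in *arp8-AA*, where 7.61% of all transcripts tested did. The median over the list was 0.36 in pair 1, 0.21 in pair 2 and 0.67 in pair 3. The count of called members was 5 without pair 1, 7 without pair 2 and 0 without pair 3, where the median was 0.32.

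Glucose enters glycolysis through the sugar kinases Hxk1, Hxk2 and Glk1. *HXK1*, the hexokinase that glucose represses, was at 174, 91.9 and 82 CPM in the *ARP8* replicates and 407, 145 and 219.7 CPM in the *arp8-AA* replicates (1.11 ± 0.14, edgeR adjusted p = 0.00474). *arp8-AA* replicate 2 lay below *ARP8* replicate 1. *GLK1*, glucokinase, was at 333, 332 and 329 CPM and 830.2, 428 and 593 CPM, near constant in *ARP8* and higher in every *arp8-AA* library, and overlaps another annotated transcript on its strand (0.85 ± 0.14, adjusted p = 0.0264). *HXK2*, the hexokinase of growth on glucose, was at 2216, 2440.4 and 2696 CPM and 2874, 2528 and 2827 CPM and was not called (0.16 ± 0.08). *TDH1*, the minor glyceraldehyde-3-phosphate dehydrogenase, rose from 218, 133 and 140.2 CPM to 537, 153 and 325 CPM with overlapping groups (0.94 ± 0.17, edgeR adjusted p = 0.0385). It shares 26.3% of its 31-base words with other coding sequences. Its paralogs *TDH2* (-0.40 ± 0.21) and *TDH3* (-0.24 ± 0.11) did not pass the test. Of the 23 genes of glycolysis and fermentation tested, 3 were called higher, against 0.615% of all transcripts tested, and none was called lower. Values over the list were positive in 13 and negative in 10, with a median of 0.04. The called members numbered 2 without pair 1, 5 without pair 2 and 1 without pair 3.

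Of 24 general stress and heat shock genes tested, 3 were called higher, against 0.615% of all transcripts tested, and none was called lower. Values were positive in 19 and negative in 5, with a median of 0.36. *DCS2*, a regulator of mRNA cap turnover induced by stress, was at 14.1, 14.8 and 11.6 CPM in the *ARP8* replicates and 57.4, 24.2 and 32.4 CPM in the *arp8-AA* replicates, without overlap (1.43 ± 0.25, edgeR adjusted p = 0.0294). *HSP30*, a stress protein of the plasma membrane, was at 141, 54 and 40 CPM and 327, 64.2 and 91 CPM (0.93 ± 0.17, adjusted p = 0.0385). *HSP30* varied more between the *ARP8* replicates than between the genotypes of pair 2, and the groups overlapped. *GAD1*, glutamate decarboxylase, rose by 0.85 ± 0.15 without overlap. *HSP12* (0.78 ± 0.22), *HSP26* (0.97 ± 0.32) and the catalase gene *CTT1* (0.47 ± 0.25) did not pass the test. The median over the 24 was 0.60 in pair 1, 0.01 in pair 2 and 0.38 in pair 3. The 3 calls became 0 without pair 1 (median 0.18), 4 without pair 2 (median 0.50) and 0 without pair 3 (median 0.39).

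Genes outside these lists also rose. *SSE2*, an Hsp110 chaperone, changed by 0.66 ± 0.11, *UBI4*, polyubiquitin, by 0.54 ± 0.09 and *PEP4*, the vacuolar proteinase A, by 0.47 ± 0.08. *SOL4*, a 6-phosphogluconolactonase, changed by 1.22 ± 0.24, 14.6, 10.6 and 7.59 CPM against 39.1, 17.8 and 21.2 CPM. *EGO4* had the largest called rise, 1.65 ± 0.27 (edgeR adjusted p = 0.0257). It was at 21.7, 10.6 and 8.1 CPM in the *ARP8* replicates and 93.1, 14.8 and 30.3 CPM in the *arp8-AA* replicates, with 1 *arp8-AA* library far above the rest and another within the range of *ARP8*. The neighbours *BDH2* (39.1, 26.8 and 25.3 CPM against 136, 39.5 and 49 CPM) and *BDH1*, a butanediol dehydrogenase (60.8, 56.8 and 49.1 CPM against 108, 79.5 and 108 CPM), rose by 1.18 ± 0.21 and 0.82 ± 0.14. Without overlap between the groups, *MCH5*, the riboflavin transporter, rose by 0.82 ± 0.15 and *WTM1*, a nuclear protein that anchors subunits of ribonucleotide reductase, by 0.48 ± 0.09. *VVS1* (0.91 ± 0.17), *YMR196W* (0.88 ± 0.13) and YFR052C-A (1.31 ± 0.21), an ID not matched to the reference, also rose without overlap between the groups.

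Msn2 and Msn4 are the zinc finger activators of the general stress response in yeast, and bind the short stress response element AGGGG. The 500 bases before each start codon were searched for AGGGG on either strand (CCCCT along the gene's strand). The letters occurred in 23 of the 31 promoters of called-higher genes with a reference annotation (74.2%) and in 2031 of 5896 of all promoters (34.4%). More than 1 match was present in 13 of the 31 (41.9%) and in 8.23% of all. In the glycogen and trehalose list 15 of 18 promoters held a match. The sequences below, along the gene's strand with the matched letters in capitals, show matches before *GPH1* (chrXVI:860937-860965, plus strand), *PGM2* (chrXIII:477895-477923, minus strand), *DCS2* (chrXV:657092-657120, plus strand), *TSL1* (chrXIII:70381-70409, plus strand) and *GSY2* (chrXII:660327-660355, plus strand).
GPH1: aggaaataagtaAGGGGtggataattttc
PGM2: gagctcacgaaaAGGGGtggtgtcgcgca
DCS2: gcgcagacgcctAGGGGggaaataagggg
TSL1: agggagataggaAGGGGcgggggtccggg
GSY2: gacactggactgCCCCTggattagcgacc
*PGM2* and *TSL1* had 5 matches each in their windows, and *GPH1*, *DCS2* and *GSY2* had 2 each, and the window of *DCS2* also ends in its other match. A match is a description of the window, and binding was not measured here. Among the 8 nuclear genes that fell, 3 had a match.

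The tricarboxylic acid cycle oxidises acetyl groups in mitochondria, and its early steps also feed glutamate synthesis through the retrograde response, by which yeast adjusts nuclear genes to the state of its mitochondria. Of 19 genes tested, 3 were called higher, against 0.615% of all transcripts tested, and none was called lower. Values were positive in 14 and negative in 5, with a median of 0.14. The 3 called genes encode the enzymes of consecutive steps, from citrate to 2-oxoglutarate. *ACO1*, aconitase, was at 787, 755 and 641 CPM in the *ARP8* replicates and 1174, 969 and 1173 CPM in the *arp8-AA* replicates (0.60 ± 0.09, edgeR adjusted p = 0.0213). *IDH1*, a subunit of the NAD-dependent isocitrate dehydrogenase, was at 98.7, 75.7 and 63.8 CPM and 140.4, 119 and 142 CPM (0.76 ± 0.14, adjusted p = 0.0303). *IDH2*, its partner, was at 298, 352 and 279 CPM and 603, 453 and 638 CPM (0.86 ± 0.14, adjusted p = 0.0213). In each of the 3 the groups did not overlap and *arp8-AA* replicate 2 was the lowest *arp8-AA* library. Leaving out pair 1, 2 or 3 left 3, 2 and 0 called members of the 19.

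The citrate synthase genes *CIT1* (0.39 ± 0.13) and *CIT2* (0.60 ± 0.16), the latter the usual reporter of the retrograde response, did not pass the test, and their groups overlapped. The fall of mitochondrially encoded transcripts was not matched in the nuclear-encoded respiratory chain and ATP synthase, where none of 37 genes was called and the median was 0.05. *COX5B* had the lowest p among them (0.64 ± 0.16, adjusted p = 0.0946). Nuclear genes for mitochondrial ribosomal proteins had positive values in 58 of 65, with a median of 0.17, and none was called. In 14 (21.5%) the unadjusted p was under 0.05 with a higher value in *arp8-AA*, against 7.61% of all transcripts tested. Their share of estimated counts was 0.364%, 0.377% and 0.369% in the *ARP8* replicates and 0.442%, 0.418% and 0.457% in the *arp8-AA* replicates, without overlap. Whether these groups move for a common reason was not tested.

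Arginine synthesis in yeast is induced by Gcn4 and repressed by arginine. *ARG1*, argininosuccinate synthetase, rose. It was at 28.8, 28.2 and 27.3 CPM in *ARP8* replicates 1, 2 and 3 and at 63.3, 60.2 and 65.6 CPM in *arp8-AA* replicates 1, 2 and 3. The replicates of each genotype were close together and the groups far apart, with a log2 fold change of 1.16 ± 0.14 (edgeR adjusted p = 0.00478). *ARG1* was called under 7 of 9 alternative settings. Other called genes held less well, with 2 of 9 for *SOL4*, *VVS1* and *TSC10*. *ARG4*, argininosuccinate lyase, did not overlap between the groups but was not called (0.45 ± 0.11, adjusted p = 0.102). The genes of ornithine synthesis, *ARG2* (0.18 ± 0.15), *ARG56* (0.01 ± 0.17), *ARG7* (0.24 ± 0.14) and *ARG8* (-0.18 ± 0.15), overlapped and did not pass the test.

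Gcn4 binds TGACTC, the core of its site, and 12.9% of all promoters held these letters on either strand (GAGTCA along the gene's strand). The 2 matches before *ARG1* (chrXV:218854-218883 and chrXV:218925-218954, plus strand) are shown with the matched letters in capitals, as a gene of this pathway that rose.
ARG1 a: gtgattttttagTGACTCatgtcgcatttg
ARG1 b: tgccgtatggaaGAGTCAtttaaaggcagg
The promoters of *ARG4* and of the 4 uncalled genes of ornithine synthesis held the same letters. Across the 32 that rose, 4 of 31 promoters held TGACTC (12.9%), the share of all promoters. No gene was called among 31 for the synthesis of aromatic, serine, threonine and glutamate family amino acids (median -0.01), nor among 25 of sulfur assimilation and methionine (median 0.11), nor among 18 of amino acid and ammonium uptake (median 0.08). In glycine cleavage and one-carbon metabolism, *GCV1* rose from 59.7, 66 and 80.5 CPM to 93.1, 98.7 and 130.0 CPM (0.64 ± 0.11, adjusted p = 0.0294), while *GCV2* (0.43 ± 0.16) and *GCV3* (0.37 ± 0.09), for the other subunits of the complex, did not pass the test.

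Yeast takes up iron through a reductive pathway and through transporters of siderophores, the iron chelators that other microbes release. Of 18 iron uptake genes tested, 2 were called higher, both siderophore transporters, against 0.615% of all transcripts tested. Values over the list were positive in 15 and negative in 3. *ENB1*, the enterobactin transporter, was at 148, 120.1 and 181 CPM in the *ARP8* replicates and 249.5, 203 and 274 CPM in the *arp8-AA* replicates, without overlap (0.70 ± 0.09, edgeR adjusted p = 0.00658). *SIT1*, the ferrioxamine B transporter, was at 119.9, 69.7 and 135 CPM and 155, 120.5 and 214 CPM (0.60 ± 0.11, adjusted p = 0.039). *SIT1* was low in replicate 2 of both genotypes, so the groups overlapped while every pair was higher. The remaining siderophore transporters *ARN1* (0.50 ± 0.11) and *ARN2* (0.48 ± 0.12) showed the same dip and were not called. The reductive pathway genes *FET3* (0.09 ± 0.11) and *FTR1* (-0.03 ± 0.10) did not pass the test. Of the 18, 4 were called without pair 1 and 0 without pair 2 or pair 3. *PDR15*, an ABC transporter of drug resistance, also dipped in replicate 2 of both genotypes (116, 61.9 and 107 CPM against 208, 102 and 194 CPM) and rose by 0.81 ± 0.10 (adjusted p = 0.00526).

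Genes for the cytosolic ribosome were mostly lower by a small amount. Of 138 ribosomal protein genes tested, 136 had a negative log2 fold change, yet none was called. In 111 (80.4%) the unadjusted p was under 0.05 with a lower value in *arp8-AA*, against 8.3% of all transcripts tested. Without a filter on low counts 19 were called, and under each of the other alternatives 0. Values ranged from -0.88 to 0.16, the lowest at *RPS11B* (-0.88 ± 0.30, edgeR adjusted p = 0.201). The median was -0.22, from -0.14 in pair 2 to -0.28 in pair 3. *RPL40B*, with the lowest p of the list, was at 1080.2, 1137 and 1055 CPM in the *ARP8* replicates and 855, 954 and 795 CPM in the *arp8-AA* replicates (-0.33 ± 0.07, edgeR adjusted p = 0.0672). Their summed share of estimated counts was 21.6%, 23.8% and 23.5% in the *ARP8* replicates and 19.6%, 22.6% and 20.7% in the *arp8-AA* replicates. Each *arp8-AA* library was below the *ARP8* library of the same number, and the groups overlapped. Ribosome biogenesis factors were negative in 48 of 53, with a median of -0.17 (-0.24 in pair 1, -0.02 in pair 2 and -0.25 in pair 3) and none called. The promoter element PAC, GATGAG, was present before 44 of these 53 (83.0%), against 27.9% of all promoters.

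**Figure D4:**
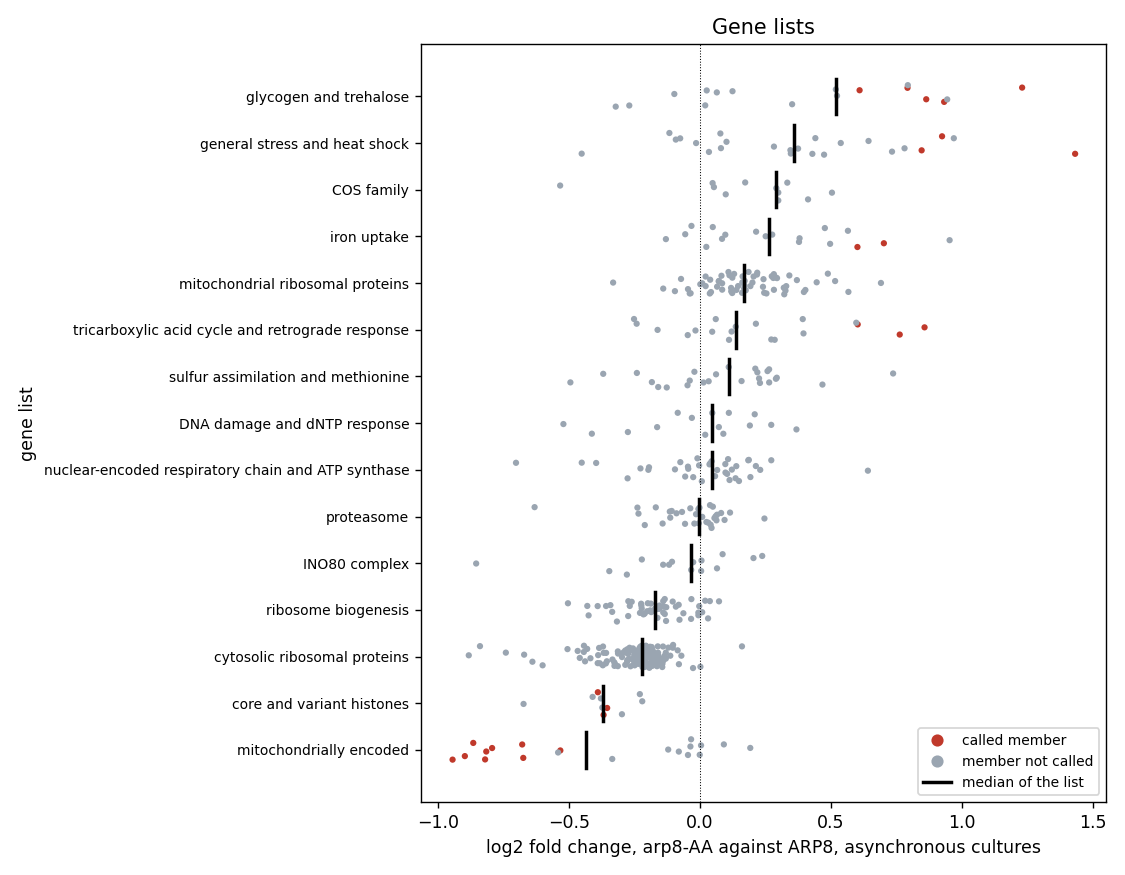
Each point is a tested gene of a list, placed by its log2 fold change in asynchronous cultures, with red for called genes and a black bar at the median. The glycogen and trehalose list is farthest to the right with a median of 0.52, the mitochondrially encoded list farthest to the left with -0.43, and the ribosomal protein list has 136 of 138 members below zero without a called gene.

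None of the 15 INO80 subunit genes was called, with a median of -0.03 and a range from -0.85 to 0.24. Of the 15, 3 (*ACT1*, *IES3* and *RVB1*) were lower at an unadjusted p under 0.05, against 8.3% of all transcripts tested. *INO80*, for the ATPase, was at 330.4, 283 and 297 CPM in the *ARP8* replicates and 319.9, 296 and 297 CPM in the *arp8-AA* replicates (0.01 ± 0.08). *IES3*, of the module with Nhp10, had the value largest in size, -0.85 ± 0.31, at 19.5, 11.5 and 13.7 CPM against 6.7, 8.39 and 9.55 CPM, and was not called (edgeR adjusted p = 0.218). *ACT1*, actin, was at 775, 367 and 373 CPM and 463, 335 and 339 CPM, again with the highest value in *ARP8* replicate 1 (-0.34 ± 0.12, adjusted p = 0.194).

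Inositol and phosphate genes are the classic transcriptional targets of INO80 in yeast. None of 17 inositol and phospholipid genes was called (median 0.08), and *INO1* was at 4.34, 6.0 and 6.07 CPM in the *ARP8* replicates and 3.72, 4.44 and 5.81 CPM in the *arp8-AA* replicates, with the groups overlapping (-0.23 ± 0.37). None of 17 phosphate genes was called (median -0.03). *PHO5*, the repressible acid phosphatase, was at 0.71 ± 0.38, and *PHO12*, a near copy of another acid phosphatase gene, had the lowest p of the list (1.06 ± 0.22, edgeR adjusted p = 0.058). At these low counts a change of *INO1* smaller than its error was not detectable. None of 15 genes of the DNA damage and deoxynucleotide response was called either, with a median of 0.05, and *RNR2*, the small subunit of ribonucleotide reductase, had the lowest p (0.21 ± 0.08, adjusted p = 0.222). Subtelomeric families gave no call: the 11 *COS* genes had a median of 0.29, and among the 8 *YRF1* helicase genes, whose copies share nearly all of their 31-base words, *YRF1-2* had the lowest p (1.42 ± 0.32, adjusted p = 0.0714).

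The synchronised libraries, 2 per genotype and time point, gave values for the same transcripts in cultures that shared no library with the asynchronous comparison. The genotype effect averaged over 10 and 20 min was called for 5 of 5453 transcripts (0.0917%). The fit took the 10 and 20 min libraries of a replicate as separate evidence on the genotype. Its SEs and p-values therefore do not allow for there being only 2 replicates. Of the 49 transcripts called in asynchronous cultures, 46 had the same sign there, 29 of the 32 that rose and 17 of the 17 that fell, against 56.1% of all 5183 transcripts tested in both. These are signs of an average. *SOL4*, *GLK1* and *SSE2* were higher in replicate 1 and lower in replicate 2 at both times. *GPH1*, *DCS2*, *TDH1*, *PEP4*, *ACO1* and *IDH1* were higher in all 4 pairs. Among the 17, *COX1* and its intron reading frames overlap and are not independent. The synchronised effect was smaller in 44 of the 49, 30 had the same sign with an unadjusted p under 0.05, and 2 were called (*AI3* and *AI4*). The 49 were picked by their asynchronous effect, so the count of smaller effects does not show a weaker response in synchronised cultures. The other 3 called in synchronised cultures, named after their values were seen, were the glucose transporter gene *HXT1* (-1.30) and the subtelomeric genes *COS12* (1.53) and *YRF1-6* (1.33). Across all 5183 transcripts the correlation of the effects was weak (Pearson's r = 0.186, Spearman's rho = 0.155, across genes, which are not independent replicates).

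*COX1* was at 2747, 2651, 2927 and 2101 CPM in the synchronised *ARP8* libraries (10 min replicates 1 and 2, then 20 min replicates 1 and 2) and at 2100.1, 1123, 1954 and 1297 CPM in the *arp8-AA* libraries in the same order. All 4 pairs were lower in *arp8-AA*, with a log2 fold change of -0.73 ± 0.14 (edgeR adjusted p = 0.104). The 4 pairs are 2 replicates, each at 10 and 20 min, and do not count as 4 replicates. *DCD1* was at 29.6, 23.4, 28.1 and 28.7 CPM and 13.8, 15.3, 15 and 11.1 CPM, and the genotypes did not overlap (-0.97 ± 0.18, adjusted p = 0.104). *GPH1* was at 31.6, 149, 26.6 and 111 CPM and 159.8, 226, 94.9 and 159 CPM, higher in *arp8-AA* in all 4 pairs. The log2 differences at 10 and 20 min were 2.32 and 1.81 in replicate 1 and 0.60 and 0.52 in replicate 2. The fitted average was close to the asynchronous value (1.26 ± 0.27, edgeR adjusted p = 0.169), although the replicates differed widely.

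Some other called genes were near zero in the synchronised libraries. *EGO4* was at 7.9, 19.4, 3.46 and 6.99 CPM and 9.71, 11.1, 5.22 and 5.57 CPM there (-0.13 ± 0.29), and *BDH2* and *PDR15* had log2 fold changes of -0.08 ± 0.23 and -0.04 ± 0.11. *ARG1* was at 168, 188, 144 and 197 CPM and 239, 213, 244 and 146 CPM (0.27 ± 0.17). It was above its asynchronous level in both genotypes, although CPM was scaled within each experiment and the levels were not tested against each other. The difference between the effects in the 2 experiments was tested in a fit of all 14 libraries, which treated the 2 times of a replicate in the same way. None of 5493 transcripts was called (0.0%) by edgeR, 318 had an unadjusted p under 0.05, and 11 of those were among the 49. *PDR15* had the lowest adjusted p of the 49 in that test (0.361), so none of the 49 was shown to respond differently in the 2 experiments.

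**Figure D5:**
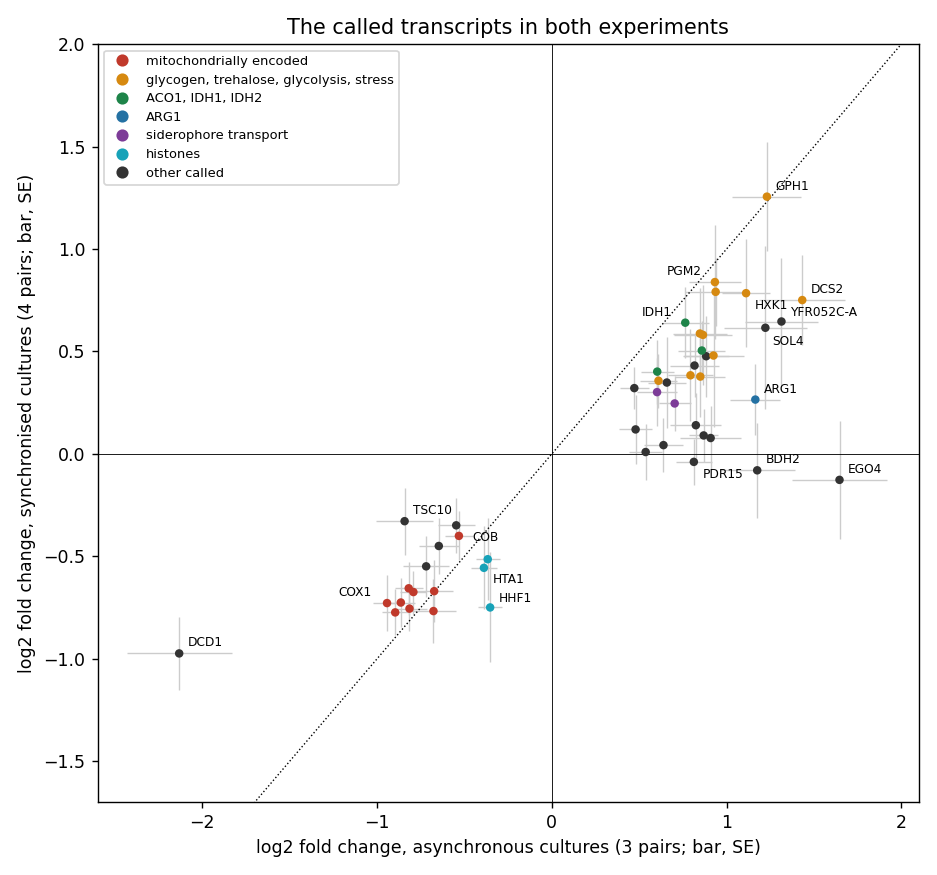
Log2 fold change of *arp8-AA* against *ARP8* for the 49 called transcripts, with SE bars and a dotted line of equality. The x axis is asynchronous cultures (3 pairs) and the y axis synchronised cultures (4 pairs from 2 replicates, taken as separate in the SE). All 17 that fell are below zero on both axes, 29 of the 32 that rose are above zero on both, and *EGO4*, *BDH2* and *PDR15* are the exceptions.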

How the data were processed

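The authors depleted RNA of ribosomal RNA, made strand-specific libraries and read both fragment ends. Estimated counts are as deposited by the authors, who ran kallisto 0.48 with its defaults (strand not used) against the R64 transcriptome. Deposited TPM, kallisto's length-scaled value, served only for shares and for levels compared between genes. No filter or normalization preceded the estimated counts. Of 6612 transcripts, 5929 were matched to the reference.

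After rounding, estimated counts were tested with edgeR 4.0.16 in R 4.3.3 (TMM, filterByExpr, two-sided quasi-likelihood F-test, Benjamini-Hochberg adjustment, call at an adjusted p under 0.05), limma 3.58.1 and DESeq2 1.42.0, the tool named in the study's methods, with Python 3.11.15, scipy 1.17.1 and matplotlib 3.10.9. CPM was scaled by TMM within each experiment. The median SE of a log2 fold change was 0.14. The replicate number entered as a block, with equal numbers taken as pairs. Deviations from the group means correlated at 0.329, 0.174 and 0.196 for libraries of the same number and between -0.299 and 0.180 for different numbers. The 0.180, between *ARP8* replicate 3 and *arp8-AA* replicate 2, exceeded the 0.174 of pair 2. These values come from the libraries tested and do not establish the pairing of replicate 2. The labels call the replicates biological and do not say what a number shares. Library pairs of a group differed by more than counting noise, and none was a copy.

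The genes named were the 15 largest rises and 12 largest falls with 3 of 3 pairs in 1 direction, INO80 subunits, strain markers, called members of the gene lists (1 is not reported here) and, in lists without a call, the member with the lowest p. Members mentioned beside them, such as other genes of the same pathway, and the called genes outside the lists were added after their values were seen. Members and lists were chosen with earlier results of these data known, so list counts and medians are descriptions. Alternatives were no block, DESeq2 size factors, no filter on low counts, DESeq2 with the replicate, each replicate pair left out, all 14 libraries in one fit, and no mitochondrially encoded transcripts. The scripts were tested on simulated data. No interval covers more than the spread between these samples.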

Additional observations from a re-analysis of the deposited data

How the results depend on the processing

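Of 49 calls, without the replicate block or pairing 4 remained (2 higher, 2 lower), of which 2 were mitochondrially encoded. Without a filter on low counts 158 were called (97 higher, 61 lower), of which 156 had also passed the filter and 49 were the original calls, so the added calls came mostly from the fit and not from the added transcripts. Leaving out a replicate pair gave 8 to 47 calls, the fewest without pair 3 (2 higher, 6 lower). All 14 libraries in one fit gave 9 calls (2 higher, 7 lower). DESeq2 size factors gave 49, DESeq2 with the replicate 35 and leaving out mitochondrially encoded transcripts 33, and the share of calls that were higher was 65.3%, 65.7% and 84.8%. The causes of these shifts were not tested. Of 432 values of called transcripts under these alternatives, 251 stayed past the threshold, 181 did not and 0 changed sign. *COX1* and *AI4* were among the transcripts called under all alternatives that held them. *SOL4*, *VVS1* and *TSC10* were called under 2 of 9. *EMP70*, *WTM1* and *HHF1* were called under 3 of 9, and *AI5_ALPHA* under 3 of 8. The mitochondrial share difference was -0.476 to -0.540 percentage points without a replicate pair, and -0.0985 points by TPM. The difference between experiments had 0 calls by edgeR under every alternative run, with 318 transcripts at an unadjusted p under 0.05. No scaling moved the median of all transcripts by more than 0.01. With 1864995 to 2582840 estimated counts per library, transcripts of a few CPM have SEs too large for the smaller effects named here.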

Other observations

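Several other groups gave no call or a mixed picture. Of 15 purine synthesis genes tested none was called and the median log2 fold change was -0.14. In 6 of them the unadjusted p was under 0.05 with a lower value in *arp8-AA*, against 8.3% of all transcripts tested. *IMD4*, an inosine monophosphate dehydrogenase, had -0.30 ± 0.07 (edgeR adjusted p = 0.0947). Proline use is fed by arginine breakdown: *PUT1*, proline oxidase, was at 11.4, 7.85 and 10.6 CPM in the *ARP8* replicates and 38.4, 12.3 and 14.1 CPM in the *arp8-AA* replicates (1.02 ± 0.30), and *PUT2*, the next enzyme, at 123, 156 and 137 CPM and 179.5, 201 and 178 CPM (0.43 ± 0.10). Neither passed the test, although the groups did not overlap in either. *HXT7*, a high-affinity hexose transporter, was near constant in *ARP8* at 572, 581 and 580.0 CPM. It was at 1727, 790.4 and 770.4 CPM in *arp8-AA*, with 0.82 ± 0.19 and an edgeR adjusted p of 0.0768. It shares 95.7% of its 31-base words with other coding sequences, so the division of reads between copies is uncertain.

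The 33 proteasome genes had a median of -0.0031 and the 25 ergosterol synthesis genes a median of 0.02, with none called in either. The 26 cell wall genes had a median of -0.17 that was -0.44 in pair 1, 0.04 in pair 2 and 0.01 in pair 3, and none was called. *GSC2*, a glucan synthase subunit induced by cell wall stress, was just outside the threshold (0.49 ± 0.10, edgeR adjusted p = 0.0506). Markers of mating type a had a median of -0.22 over 5 genes, again larger in pair 1 (-0.65) than in pair 2 (0.09) or pair 3 (-0.03).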
